A study of Mus musculus with 24 samples.

Results

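Gene expression in the mouse epididymis was compared across birth, between embryonic day 18.5 (E18.5) and postnatal day 1 (P1). The arrays were chosen by their labels: 2 of the epididymis at P1 and 2 of the epididymis at E18.5, which are 4 of the 24 arrays in the series. All samples came from male CD1 mice, an outbred strain, with no genetic change or treatment stated. The series also holds the efferent duct, which leads from the testis into the epididymis, and the vas deferens, which leads out of it, and samples every segment at E14.5 and E16.5 as well as at both ages compared, with 2 arrays in each group. The platform was an Affymetrix array, to which biotin-labelled total RNA of whole tissue, prepared with Trizol, was hybridised. The labels do not say whether an array holds 1 animal or a pool, so a p-value here speaks only of the spread between arrays, which may be technical.

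The epididymis forms from the Wolffian duct, an epithelial tube that coils within a mesenchyme under the influence of testicular androgen, and its sperm-maturing secretions are largely acquired after birth. At birth the oxygen supply passes from the placenta to the lungs, and the fuel changes from placental glucose to milk rich in fat. The hypoxia response is run by the hypoxia-inducible factors, transcription factors that prolyl hydroxylases mark for destruction when oxygen is ample. Their known targets include the glucose transporter Slc2a1, most enzymes of glycolysis, the blood vessel growth factor Vegfa, and Egln1 and Egln3, which encode prolyl hydroxylases of the same loop.

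Each value is the log2 of a probe set's deposited ratio to its median over the 24 arrays. It shows how arrays differ for a gene and holds no level, so neither abundance nor distance from background can be read from it. Across 34945 probe sets the E18.5 arrays correlated with each other at r = 0.715 and the P1 arrays at 0.712, and the SD of the difference within a pair was 0.174 and 0.202. The 4 arrays lay close together in the Gapdh control probe sets, and the P1 arrays lay further apart in the hybridisation controls. The 5′ probe set of Gapdh minus its 3′ probe set, a sign of RNA integrity, ranged from -0.01 to 0.16 on them and from -2.94 to 0.19 on the remaining 20. The hybridisation controls were at 0.02 and -0.01 on the E18.5 arrays and at -0.37 and 0.20 on the P1 arrays. Several markers of the neighbouring segments set the epididymis apart from them at both ages, and others did not. Hoxd13 lay between -0.38 and 0.04 in the epididymis and between 4.73 and 5.27 in the vas deferens, and Pdzk1 lay between -0.24 and 0.12 in the epididymis and between 4.68 and 4.92 in the efferent duct. Hoxa13, Hoxd12 and Slc9a3 hardly differed between the segments: Hoxd12, for one, lay between -0.17 and 0.06 in the epididymis and between -0.19 and 0.08 in the vas deferens.

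Both rises and falls were found across birth. Of 18193 genes, 67 (0.368%) had an adjusted p under 0.05 in the limma fit over all 24 arrays and are named called genes here. Of these, 39 (0.214%) rose and 28 (0.154%) fell, 16 and 7 of them by at least 2-fold. The P1 and E18.5 arrays did not overlap for any of the 67, and 43.0% of all genes had no overlap. At an unadjusted p under 0.05 there were 1233 genes, and the median change of all genes was 0.02. The count depended on the processing: it was 1049 (670 higher, 379 lower) after quantile normalization and 372 with array weights. It also depended on single arrays: it was 23 and 17 without the first or the second E18.5 array, and 38 and 19 without the first or the second P1 array.

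Genes of hypoxia and glycolysis made up 12 of the 28 falls. Their list, like the other gene lists, was chosen with earlier results of these data known. Of 28 listed genes 26 were measured, and 12 of these fell and 0 rose, where 0.154% of all genes fell. The change was below 0 for 24 of the 26 and below 0 for 43.92% of all genes. The median change of the list was -0.58, with a range of -1.58 to 0.44, and became -1.02 after quantile normalization. The arrays of the ages did not overlap for 23 of its members, as for 43.0% of all genes. Among the 23 are Pfkfb4 and Adm, whose P1 arrays were the higher. The mean of the list on the log2 scale was 0.33 and 0.46 on the E18.5 arrays and -0.22 on both P1 arrays. Whether such a fall means less RNA per cell or fewer cells that hold it cannot be told apart in whole tissue. The number of members that fell was 7 and 5 without the first or second E18.5 array, and 8 and 5 without the first or second P1 array.

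**Figure D1:**
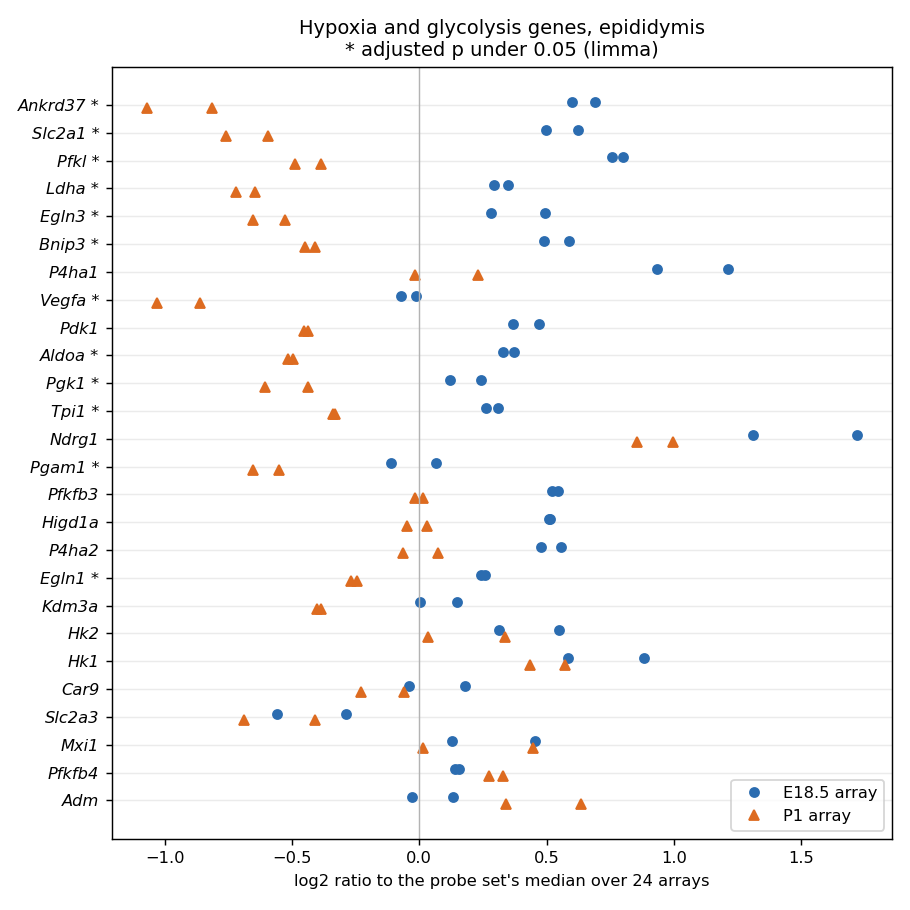
Log2 ratio to the median (horizontal axis) of the 26 measured hypoxia and glycolysis genes on the 2 E18.5 arrays (circles) and the 2 P1 arrays (triangles) of the epididymis. Stars mark the 12 genes with an adjusted p under 0.05, whose P1 arrays all lie below their E18.5 arrays.

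The 4 members with the largest called falls are shown with the 250 bases before their RefSeq transcription start (GRCm38.p6), 5′ to 3′ on the strand of the gene, because they fell together and differ in the core motif of the hypoxia response element. The searched motif was ACGTG on both strands, and capitals mark its matches, which read CACGT where the match is on the opposite strand. The first is Ankrd37 at chr8:45999851-46000100 on the minus strand, the next Slc2a1 at chr4:119108495-119108744 on the plus strand, then Pfkl at chr10:78009808-78010057 on the minus strand and Ldha at chr7:46845554-46845803 on the plus strand.
Ankrd37: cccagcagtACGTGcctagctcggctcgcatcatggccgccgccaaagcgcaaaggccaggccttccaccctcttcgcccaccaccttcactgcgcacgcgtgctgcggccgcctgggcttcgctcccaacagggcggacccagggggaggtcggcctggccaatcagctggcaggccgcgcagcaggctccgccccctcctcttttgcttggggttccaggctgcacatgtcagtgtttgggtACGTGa
Slc2a1: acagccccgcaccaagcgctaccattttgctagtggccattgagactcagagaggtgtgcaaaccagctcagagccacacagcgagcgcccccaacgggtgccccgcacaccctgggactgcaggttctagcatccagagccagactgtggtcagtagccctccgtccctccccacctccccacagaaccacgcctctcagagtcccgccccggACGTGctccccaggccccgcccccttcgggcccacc
Pfkl: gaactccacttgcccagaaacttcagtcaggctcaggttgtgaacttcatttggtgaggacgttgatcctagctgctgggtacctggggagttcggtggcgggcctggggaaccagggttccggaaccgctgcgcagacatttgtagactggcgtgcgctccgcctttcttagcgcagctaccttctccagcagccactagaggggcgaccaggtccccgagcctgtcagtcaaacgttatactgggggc
Ldha: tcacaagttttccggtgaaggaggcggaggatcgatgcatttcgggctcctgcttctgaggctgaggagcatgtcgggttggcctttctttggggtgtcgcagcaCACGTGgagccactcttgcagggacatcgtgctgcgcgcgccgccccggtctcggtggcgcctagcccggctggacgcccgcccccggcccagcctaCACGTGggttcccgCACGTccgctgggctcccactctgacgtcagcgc
The Ankrd37 window held 2 matches, 1 of them starting 6 bases before the transcription start, the Slc2a1 window 1 match and the Ldha window 5. The 5 in Ldha include 2 E-boxes, CACGTG, each of which counts on both strands. The Pfkl window held none, which says only that these letters are not in it.

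Ankrd37, an ankyrin repeat gene known as a target of the hypoxia-inducible factors, showed the largest fall of the list. Its values were 0.60 and 0.69 at E18.5 and -1.07 and -0.81 at P1. Both P1 arrays lay well below both E18.5 arrays, and the difference was -1.58 ± 0.15 (SE, n = 2 arrays per age), with an adjusted p of 8.1e-05 by limma. Slc2a1 encodes the glucose transporter GLUT1 of the cell membrane. It stood at 0.50 and 0.62 before birth and at -0.76 and -0.59 after it. The difference of -1.24 ± 0.14, or 2.36-fold lower, was far larger than the gap between arrays of 1 age (limma adjusted p = 0.00031). Its other 2 probe sets differed by -0.97 and -1.28.

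The glycolytic enzymes followed in the same direction. Pfkl, the liver form of phosphofructokinase, which commits sugar to glycolysis, was at 0.76 and 0.80 at E18.5 and at -0.49 and -0.38 at P1. Ldha, the lactate dehydrogenase subunit that turns pyruvate to lactate, was at 0.29 and 0.35 at E18.5 and at -0.65 and -0.72 at P1. Neither overlapped between the ages, with differences of -1.21 ± 0.15 and -1.004 ± 0.132 (limma adjusted p = 0.00066 and 0.00084). Pfkl's other 2 probe sets differed from each other, at -1.11 and -0.25. Smaller falls passed for aldolase (Aldoa, -0.86), phosphoglycerate kinase (Pgk1, -0.70), triosephosphate isomerase (Tpi1, -0.62) and phosphoglycerate mutase (Pgam1, -0.58). The called set thus held enzymes from phosphofructokinase to lactate dehydrogenase. The hexokinases, which take the first step, were not called: Hk2 differed by -0.25 and Hk1 by -0.23, and the Hk2 arrays overlapped between the ages.

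Regulators and other targets fell as well. Bnip3, which marks mitochondria for degradation, was at 0.49 and 0.59 at E18.5 and at -0.45 and -0.41 at P1. The arrays of each age lay close together, and the difference was -0.97 ± 0.12 (limma adjusted p = 0.00066). Egln3 was at 0.28 and 0.50 before birth and at -0.53 and -0.66 after, a difference of -0.98 ± 0.16 (limma adjusted p = 0.0056), with its other probe set at -0.49. Egln1, the main oxygen sensor among the prolyl hydroxylases, had a smaller fall of -0.51 ± 0.10 (limma adjusted p = 0.031), with its other probe set at -0.23. Vegfa, the vascular endothelial growth factor, was at -0.07 and -0.01 at E18.5 and at -0.86 and -1.03 at P1. It was 1.87-fold lower after birth, with no overlap (limma adjusted p = 0.0045), and its other probe set was at -0.41.

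Of the 14 members that did not pass, 12 had a change below 0. P4ha1, a collagen prolyl hydroxylase, had a change as large as Bnip3, -0.97, but an SE of 0.39 (limma adjusted p = 0.574). Its compared arrays did not overlap, at 0.93 and 1.21 at E18.5 and at 0.23 and -0.02 at P1. The SE draws on all arrays, and pairs outside the comparison lay further apart. At E14.5 P4ha1 was at 0.47 and -0.82 in the epididymis and at 0.36 and -1.11 in the efferent duct. The other P4ha1 probe set differed by -0.85 with an SE of 0.15. Pdk1, the kinase that keeps pyruvate out of the mitochondria, differed by -0.87 and was not called (limma adjusted p = 0.0749), and its other 3 probe sets lay between -1.13 and -0.55. Kdm3a, a histone demethylase, was at -0.47 (limma adjusted p = 0.0612). Above 0 lay Adm, the vessel-relaxing peptide adrenomedullin, at 0.44, and Pfkfb4 at 0.15. The RNAs of the factors themselves were looked up after the list had been seen, and none was called, where 0.368% of all genes were. Hif1a differed by 0.26 ± 0.39, Epas1 by -0.12 ± 0.11 and Arnt, their partner, by 0.09 ± 0.27. With SEs this wide for Hif1a and Arnt, a change in either cannot be told from none. The P1 arrays of Hif1a lay at 0.77 and 0.11.

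Further genes with called falls lay outside the list, of which Fam162a and Plod2 were picked after their values were seen. Slc16a3, the transporter that exports lactate, was at 0.43 and 0.59 at E18.5 and at -0.63 and -0.62 at P1. It was 2.20-fold lower after birth (limma adjusted p = 0.0040). Ak4, a mitochondrial adenylate kinase, differed by -0.87, though its other 4 probe sets had a median of -0.11. Ddit4, an inhibitor of the growth kinase mTORC1, fell by 0.79. The mitochondrial gene Fam162a fell by 0.70, with its other probe set at -1.04. Plod2, a collagen lysyl hydroxylase, fell by 0.68, but its other probe set was at -0.18.

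The core motif was more frequent in these promoters than in promoters at large, as a description only. The list holds known targets of the hypoxia-inducible factors, so its share of the motif is not independent of how members were chosen. Of the 12 called members 8 held ACGTG in the 250 bases (66.7%), as did 5 of the 12 uncalled members with a RefSeq promoter (41.7%). The share was 19.8% over the promoters of 14452 tested genes and 16.6% over all 27025. Besides Pfkl, the windows of Vegfa, Aldoa and Tpi1 held no match. The E-box CACGTG, which contains the core on both strands, was in 2 of the 12 and in 7.56% of promoters of tested genes.

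**Figure D2:**
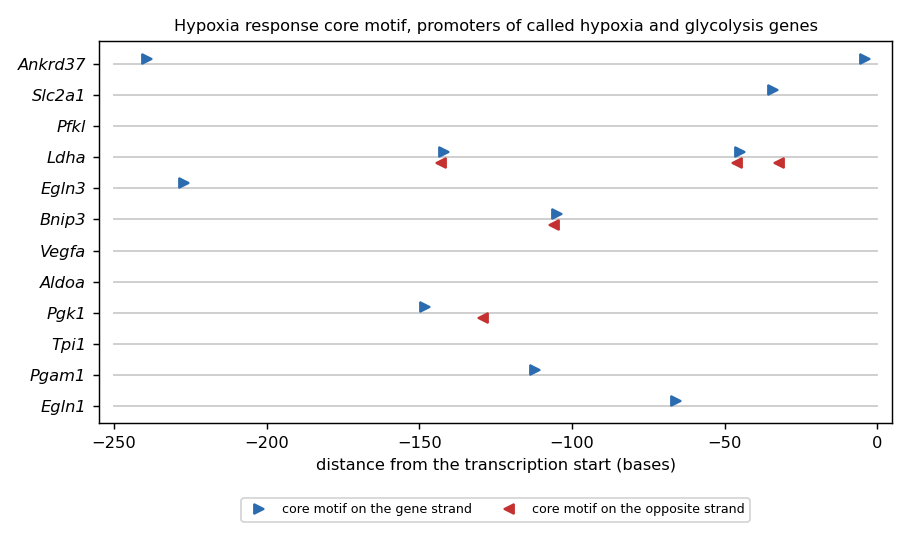
Position of the core motif of the hypoxia response element in the 250 bases before the transcription start of the 12 called hypoxia and glycolysis genes; the horizontal axis is the distance from the start in bases and the symbols give the strand. Matches were found for 8 genes, with 5 in Ldha and none in Pfkl, Vegfa, Aldoa and Tpi1.

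Blood and vessel markers were read beside this fall. Among 14 measured erythroid markers 9 had a change below 0, as did 43.92% of all genes. Alas2, the first enzyme of haem synthesis in red cell precursors, was the only one called, where 0.368% of all genes were. Its values were 0.30 and 0.33 at E18.5 and -0.83 and -1.13 at P1, with no overlap (difference -1.29 ± 0.16, limma adjusted p = 0.00077). The mean of the erythroid list was -0.20 and -0.18 at E18.5 and -0.32 and -0.39 at P1, while the adult globin Hba-a1 differed by 0.00 and the embryonic globin Hbb-y by 0.10. Slc25a37, the mitochondrial iron importer used in haem synthesis, also fell, by 0.82 (limma adjusted p = 0.025). Both were already falling before birth: from E16.5 to E18.5 Alas2 differed by -1.12 and Slc25a37 by -1.48.

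No marker of endothelial cells or pericytes, the cells of the vessel wall, was called by limma, and 4 of 18 and 2 of 7 had an unadjusted p under 0.05, as did 6.78% of all genes. The change was below 0 for 14 of the 18 endothelial markers, with Flt1 and Sox17 lowest at -0.61 and -0.60, and for 7 of the 7 pericyte markers, against 43.92% of all genes. The mean of the endothelial list was 0.01 and 0.08 at E18.5 and -0.08 and -0.12 at P1, and that of the pericyte list 0.44 and 0.43 against 0.11 and 0.21. The part of these cells in the fall of the hypoxia genes was not tested.

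Genes of fat use were among those that rose. Of 27 measured genes of fatty acid oxidation and fasting, 3 rose and 0 fell, where 0.214% of all genes rose. A change above 0 was found for 22 of them and for 56.08% of all genes, and the list's median was 0.15. The number that rose was 2 and 1 without the first or second E18.5 array, and 2 and 3 without the first or second P1 array. Angptl4, a secreted inhibitor of lipoprotein lipase induced by fatty acids and fasting, was at -0.67 on both E18.5 arrays and at 1.47 and 0.85 at P1. The P1 arrays differed from each other by more than the E18.5 arrays, yet both lay far above them. It was 3.56-fold higher after birth (difference 1.83 ± 0.19, limma adjusted p = 0.00013), although its other probe set differed by 0.16.

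Cpt1a, which admits long-chain fatty acids to mitochondria, was at -0.01 and 0.01 at E18.5 and at 1.24 and 1.03 at P1. Its rise of 1.13 ± 0.18 (limma adjusted p = 0.0056) stood beside differences of 0.80 and 0.86 in its other 2 probe sets. Cd36, a fatty acid transporter, was at 0.39 and 0.20 before birth and at 1.34 and 1.49 after. It rose by 1.12 ± 0.15 (limma adjusted p = 0.0014), and its other 2 probe sets were at 0.05 and 0.98. The next largest of the list, the carnitine carrier Slc25a20, differed by 0.45 and was not called. Ech1, a peroxisomal and mitochondrial enzyme of fatty acid breakdown named after its value was seen, rose by 0.58.

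Angptl4 and Mt2 were also the members of the glucocorticoid-responsive list that rose, of 26 measured, while Ddit4 fell. Of all genes 0.214% rose and 0.154% fell. The list's median was 0.04, with a range of -0.79 to 1.83. An unadjusted p under 0.05 was found for 7 members and for 6.78% of all genes. Mt2, a metallothionein that binds zinc and copper, was at 0.77 and 0.47 at E18.5 and at 1.76 and 1.85 at P1. The arrays did not overlap, and it was 2.27-fold higher after birth (limma adjusted p = 0.00084). Its neighbour Mt1 differed by 0.82 and was not called (limma adjusted p = 0.0575). The widely used glucocorticoid targets Fkbp5, Tsc22d3 and Per1 stood at 0.04, 0.05 and 0.11.

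Cirbp, a cold-inducible RNA-binding protein, had one of the largest rises. It was at -0.42 and -0.02 at E18.5 and at 1.35 and 1.49 at P1. Both P1 arrays exceeded both E18.5 arrays by more than the E18.5 arrays differed, and it was 3.13-fold higher (difference 1.64 ± 0.21, limma adjusted p = 0.00084). None of 25 measured genes of heat shock and protein folding was called by limma, where 0.368% of all genes were. An unadjusted p under 0.05 was found for 2 of them and for 6.78% of all genes. Nr1d2, a nuclear receptor of the circadian clock, rose by 0.68 (limma adjusted p = 0.031). It was the 1 of 19 clock genes that rose, where 0.214% of all genes did. Klf10, a zinc finger factor of the immediate early list, rose by 0.57 (limma adjusted p = 0.049), and the other 33 of that list were not called.

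Among the secreted proteins and the epithelial adhesion genes 1 listed gene each rose. Defb29, a beta-defensin of the epididymal epithelium, was at 2.11 and 1.97 at E18.5 and at 2.97 and 3.27 at P1. It rose by 1.08 ± 0.18 (limma adjusted p = 0.0088). Of 30 measured secreted proteins and enzymes of the adult epididymis it was the 1 that passed, where 0.368% of all genes did. The list's median was 0.06, and Defb1, Spink8 and Ptgds differed by 0.68, 0.63 and 0.58 without being called. Crisp3, a cysteine-rich secretory protein, was at 0.21 and 0.86 at E18.5 and at 1.76 and 2.09 at P1. Its rise of 1.39 ± 0.19 passed (limma adjusted p = 0.0014), though the E18.5 arrays stood apart from each other. Spink12, of the Kazal family of protease inhibitors, rose by 0.98 ± 0.16 (limma adjusted p = 0.0072).

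Of 38 measured genes of epithelial adhesion and keratins, 33 had a change above 0 and 1 was called, against 56.08% and 0.214% of all genes. This was the tight junction gene Cldn3, which was at 0.58 and 0.30 at E18.5 and at 1.13 and 1.30 at P1. It rose by 0.78 ± 0.12 (limma adjusted p = 0.0045), and its other 3 probe sets lay between 0.63 and 0.72. The list's median was 0.24, with Cldn4 at 0.62 and Epcam at 0.49, neither of them called. The duct epithelium markers had a change above 0 in 9 of 10, with means of 0.19 and 0.17 at E18.5 and 0.36 and 0.60 at P1. The share of epithelium in the sample was not tested.

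Single genes of muscle and matrix were among those that rose. Tnnt2, a troponin best known from the heart, was at 0.85 and 0.99 at E18.5 and at 2.27 and 2.50 at P1. It was 2.75-fold higher (difference 1.46 ± 0.16, limma adjusted p = 0.00031), with its other 2 probe sets at -0.08 and 1.47. Cnn1, calponin of smooth muscle, was at 1.71 and 1.58 at E18.5 and at 2.30 and 2.72 at P1 (difference 0.86 ± 0.17, limma adjusted p = 0.033). It was the 1 of 23 smooth muscle genes that rose, where 0.214% of all genes did. Actg2 and Myh11, its fellow contractile genes, differed by 0.90 and 0.49 and were not called, and the list's median was 0.22. No skeletal muscle marker of 20 was called by limma, and none had an unadjusted p under 0.05, which 6.78% of all genes had.

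Mfap5, a protein of elastin-associated microfibrils, was at 1.71 and 1.77 at E18.5 and at 2.90 and 2.998 at P1. It rose by 1.20 ± 0.16 (limma adjusted p = 0.00084) and was the 1 of 35 interstitial matrix genes to do so, where 0.214% of all genes did. The Y6 receptor gene of the neuropeptide Y family, Npy6r, was at 1.48 and 1.35 at E18.5 and at 2.47 and 2.46 at P1. The gap between the ages was far wider than that between arrays of 1 age, and it rose by 1.05 ± 0.12 (limma adjusted p = 0.00035), with its other probe set at 0.81. Among the genes that rose, the P1 arrays stood apart from each other for Gabrg1, a subunit of the GABA-A receptor, at 0.91 and 1.90, and for the matrix gene Vit, at 0.49 and 1.58. Angptl1 rose by 1.22 (limma adjusted p = 0.014), but its other 2 probe sets were at -0.44 and 0.51. Rgn, a calcium-binding protein, rose by 0.91 (limma adjusted p = 0.0056).

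Pnoc, the precursor of the neuropeptide nociceptin, showed the largest fall of all called genes. It was at 1.46 and 1.71 at E18.5 and at -0.01 and -0.24 at P1. The arrays lay far apart between the ages, and it was 3.28-fold lower after birth (difference -1.71 ± 0.22, limma adjusted p = 0.00076). None of 14 measured neuron markers was called by limma, and 1 had an unadjusted p under 0.05, as did 6.78% of all genes. Acer2, an alkaline ceramidase, differed by -0.96, but its other probe set was at 0.09. Prelid2 fell by 0.92, with its other probe set at -0.19, and the long non-coding RNA Dubr by 0.90 (limma adjusted p = 0.025 and 0.047).

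**Figure D3:**
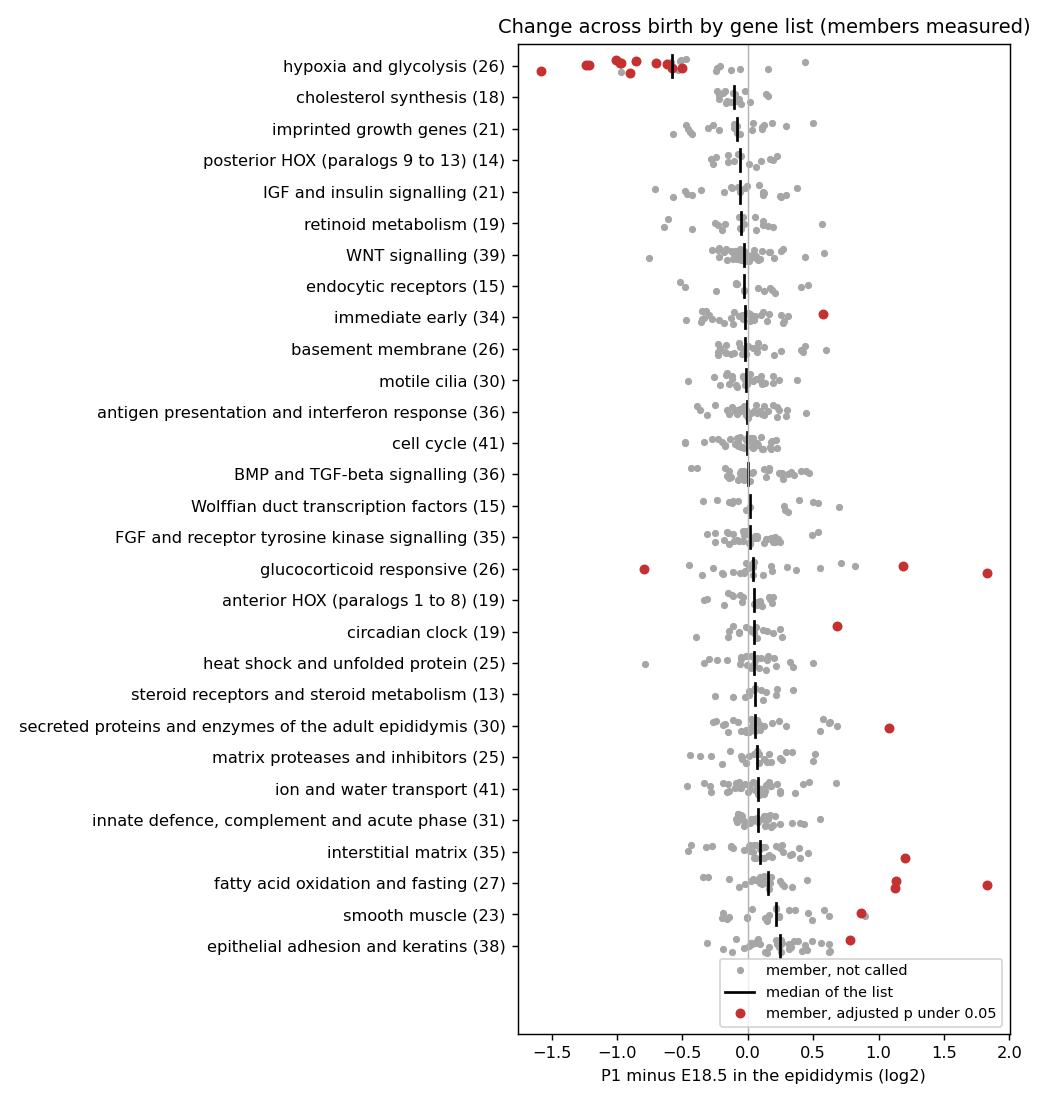
Change from E18.5 to P1 in the epididymis (log2, horizontal axis) of the measured members of each gene list, 1 point per gene, with called genes in red and the list's median as a bar. The median of the hypoxia and glycolysis list is -0.58 and its 12 called genes all lie below 0.

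No member was called by limma in 20 of the 29 process lists and 19 of the 20 marker lists. Over all genes 0.368% were called, a share at which most lists of this size would hold no call. The 20 process lists held 515 measured genes, 51 of them with an unadjusted p under 0.05, which 6.78% of all genes had, and their medians lay between -0.11 and 0.08. Among them were the cell cycle (41 measured, median 0.00), WNT, FGF and BMP signalling, the HOX genes, and steroid receptors and steroid metabolism. In the last, the glucocorticoid receptor Nr3c1 differed by 0.35 and the oestrogen receptor Esr1 by -0.25. Pax8, a factor of the duct epithelium, was at 0.70 (limma adjusted p = 0.0859). The 19 marker lists held 211 measured genes, 29 with an unadjusted p under 0.05. The granulocyte marker S100a8 had a large change of 1.06 that did not pass (limma adjusted p = 0.831). Its arrays lay at 0.17 and -0.11 at E18.5 and at 1.42 and 0.77 at P1.

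The neighbouring segments were set beside the epididymis to ask which of these changes it shared. Between E18.5 and P1, 97 genes (0.533%) were called in the efferent duct and 195 (1.07%) in the vas deferens. The change had the same sign as in the epididymis in 62 of its 67 called genes in the efferent duct, and in 62 in the vas deferens, against 59.9% and 57.8% of all genes. Of the 28 that fell, 17 also fell in the efferent duct and 22 in the vas deferens, where 0.187% and 0.533% of all genes did. Of the 39 that rose, 14 and 8 rose there too, against 0.346% and 0.539%. The vas deferens arrays of these ages stand apart in control probe sets, with 5′ to 3′ differences of -2.94 to -2.68 for Gapdh, and the part of this in the vas deferens values was not tested.

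Hypoxia and glycolysis genes fell in all 3 segments. The list held 13 called falls in the efferent duct and 16 in the vas deferens, with medians of -0.61 and -0.67. Ankrd37 differed by -1.35 and -1.30 in those segments, Slc2a1 by -1.57 and -1.14, and Ldha by -0.92 and -0.97. No member's change in the epididymis differed from that in either segment after adjustment in limma, where 0.00550% and 0.0275% of all genes did. The differences ran from -0.43 to 0.82 against the efferent duct and from -0.47 to 0.64 against the vas deferens. An unadjusted p under 0.05 was found for 1 and 2 members, and for 592 and 864 of all 18193 genes. Hk2 had the highest difference against both segments. It was not called in the epididymis, at -0.25, but fell by 1.06 in the efferent duct and by 0.89 in the vas deferens (limma adjusted p = 0.0012 and 0.0033). Angptl4 rose in all 3 as well, by 2.20 in the efferent duct and 1.43 in the vas deferens, as did Cirbp, by 1.84 and 1.03.

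**Figure D4:**
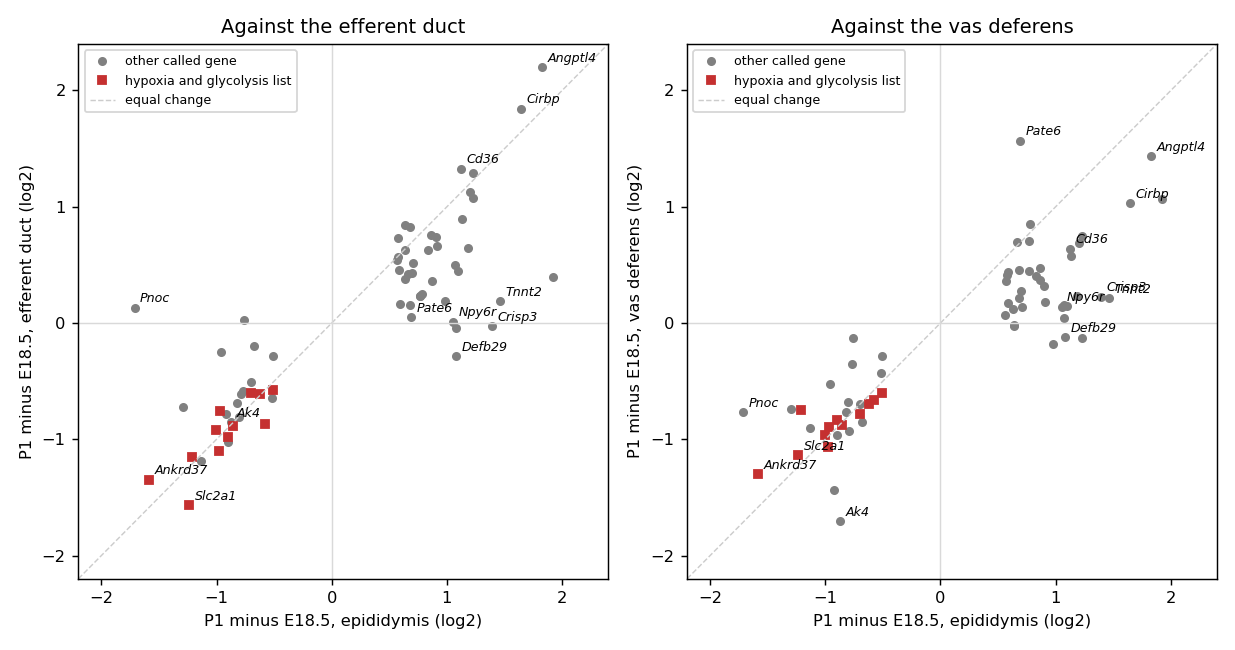
Change from E18.5 to P1 of the 67 called epididymis genes (horizontal axis, log2) against their change in the efferent duct and in the vas deferens (vertical axes, log2), with the hypoxia and glycolysis genes as red squares and equality as a dashed line. The sign is shared by 62 genes in each panel, and all red squares lie in the lower left.

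Other changes had values near 0 in the neighbours. Tnnt2 differed by 0.19 in the efferent duct and 0.21 in the vas deferens, Npy6r by 0.01 and 0.14, Crisp3 by -0.03 and 0.23, and Defb29 by -0.28 and -0.12. For these genes the difference between segments itself did not pass after adjustment. The closest were Tnnt2 against the vas deferens (difference 1.25, limma adjusted p = 0.0632) and Npy6r (1.04 against the efferent duct, limma adjusted p = 0.0694, and 0.91 against the vas deferens, 0.0669). Pnoc differed by 0.13 in the efferent duct, where the difference from the epididymis was -1.84 (limma adjusted p = 0.0694). Over all genes, the change in the epididymis differed from that in the efferent duct for 1 gene (0.00550%) and from that in the vas deferens for 5 (0.0275%), 3 of them with the higher value in the epididymis (0.0165%) and 2 with the lower (0.0110%). At an unadjusted p under 0.05 there were 592 and 864.

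The preceding interval, E16.5 to E18.5, held far more change in the epididymis: 1485 genes were called (8.16%), 748 higher (4.11%) and 737 lower (4.05%). Both comparisons use the E18.5 arrays, so their values are given side by side. The count before birth was 446 and 413 without the first or second E18.5 array. The hypoxia list held 6 called rises and 1 called fall before birth, with a median of 0.13. Slc2a1 differed by 0.61 before birth and by -1.24 across it, Pfkl by 0.82 and then -1.21, and Ldha by 0.04 and then -1.004.

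Of the 39 genes that rose across birth, 10 also rose from E16.5 to E18.5 and 3 fell. Defb29 differed by 2.37 before birth and 1.08 across it, Mfap5 by 1.63 and 1.20, Npy6r by 1.51 and 1.05, and Spink12 by 1.34 and 0.98. Tnnt2, by contrast, differed by 0.07 before birth and 1.46 across it, and Cirbp by -0.64 and 1.64. Of the 28 that fell, 4 fell before birth and 6 rose. Pnoc differed by -1.16 before birth and -1.71 across it.

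**Figure D5:**
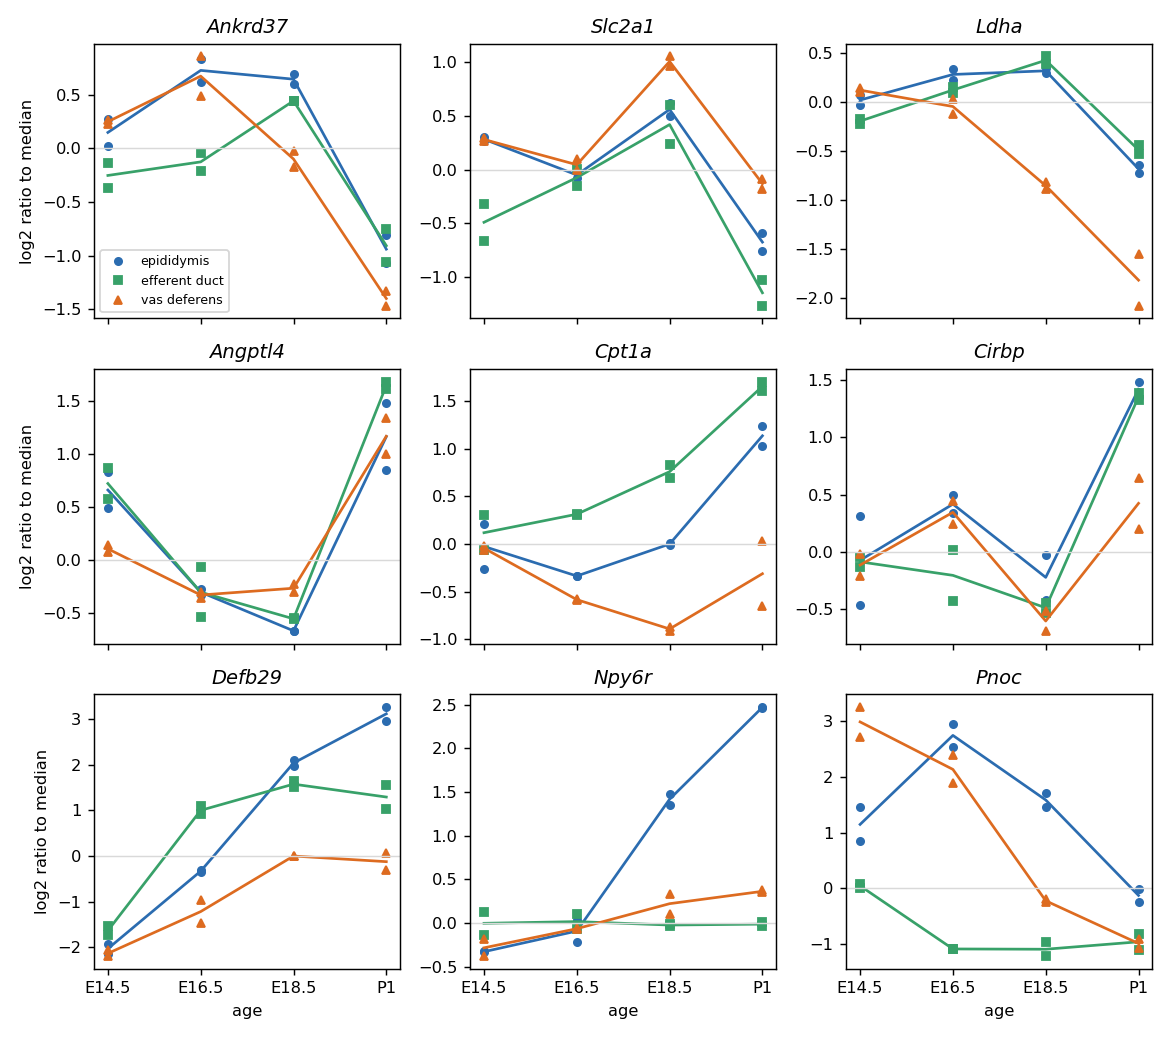
Log2 ratio to the median (vertical axes) of 9 genes at the 4 ages sampled (horizontal axes, E14.5 to P1) in the epididymis, efferent duct and vas deferens, with 1 point per array and lines through the group means. Ankrd37, Slc2a1 and Ldha drop from E18.5 to P1 in each segment, whereas Npy6r differs by 1.05 in the epididymis and by 0.01 and 0.14 in the other segments.

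Many of these calls were lost when 1 array was left out. Of 35 genes followed through the other settings, 30 had the largest called changes, not counting predicted genes and probe sets with shared sequence such as that of Ccn3, and 5 were further called members of the hypoxia list. Among them, 10 were called under each of the 16 alternatives, or for Npy6r under the 15 that include it, since the variance filter left it out: Angptl4, Tnnt2, Mfap5, Mt2, Npy6r, Ankrd37, Alas2, Slc2a1, Ldha and Bnip3. Without the first E18.5 array the call was lost for 16, with adjusted p-values of 0.052 to 0.410 by limma: Angptl1, Cpt1a, Defb29, Gabrg1, Vit, Rgn, Acer2, Prelid2, Vegfa, Dubr, Ak4, Slc25a37, Egln1, Aldoa, Tpi1 and Pgam1. Without the second E18.5 array the same 16 were lost and with them Cd36, Spink12, Slc16a3, Egln3 and Pgk1 (0.059 to 0.483). Without the first P1 array 9 were lost: Angptl1, Cpt1a, Prelid2, Ak4, Slc25a37, Egln1, Aldoa, Tpi1 and Pgam1 (0.072 to 0.172). Without the second P1 array 20 were lost (0.055 to 0.675). These were the 21 lost without the second E18.5 array, other than Cpt1a and Cd36, and Crisp3. The sign of the change stayed the same for all 35 under all of these settings, and over the 66 lost calls the change was 0.491 to 1.15 times that with all arrays. The lowest shares were those of Vit and Gabrg1 without the second P1 array, where they differed by 0.52 and 0.58. With 1 array left at an age, that array is assumed to vary like those of the other groups.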

How the data were processed

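Total RNA of epididymis, efferent duct and vas deferens was measured on 24 Affymetrix arrays, 2 per segment and age. Per the submitters' processing notes RMA was used; its settings and version: not given in the sources used here. What the authors deposited is a linear ratio, as the values show: 45081 of 45101 probe sets had a median of 1 within 1e-04. Their log2 was taken. Control probe sets (64) and probe sets with several symbols (932) or none (9160) were left out. Of the 34945 with 1 symbol, 34754 matched by Entrez identifier and 0 symbols changed. A gene was read from its most variable probe set across the 24 arrays, which favours probe sets that differ for any reason. Ratios allow no filter on low values, and precision is limited by the number of arrays.

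For each of 18193 genes the means of the 12 groups were fitted with limma 3.58.1 (R 4.3.3), with empirical Bayes moderation, so each SE draws on all arrays. All p-values are two-sided and adjusted by Benjamini-Hochberg over all 18193 genes, also for the differences between segments. The fit was tested on simulated data of 18193 genes for the epididymis comparison: 88 of 100 genes changed by 1 on the log2 scale and 96 of 100 changed by 1.5 were recovered, with 15 false calls. The simulated noise was normal, with the same SD for a gene in every group, as the fit assumes. Arrays that differ in spread, smaller changes or fewer changed genes were not simulated, so these rates may not hold for the data. The numbers of replicates were not used as pairs, since deviations of same-numbered arrays correlated at -0.22 for the compared groups and over 0.1 in 13 of 66 pairs of groups.

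Named genes were the 15 largest called rises and falls without overlap between ages, skipping predicted genes and probe sets with shared sequence, up to 6 called members of a list or 2 of a list with none, and the called differences between segments. The comparison, the 29 process lists and 20 marker lists were chosen with earlier results of these data known. The settings varied were the scaling, the choice of probe set, a variance filter, the arrays in the fit, array weights, a replicate block and leaving out each array. Promoters are the 250 bases before the first RefSeq start of a gene.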

Additional observations from a re-analysis of the deposited data

Results flagged for a closer look

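In 6 genes the change from E18.5 to P1 in the epididymis differed from that of a neighbouring segment after adjustment over all genes, by limma's test of the difference itself. In none of them was the change within the epididymis called. The groups of 2 arrays were too small to test for single outlying arrays.

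Trp63, the p63 factor of basal and squamous epithelia, differed by 0.21 in the epididymis and by 3.06 in the vas deferens, a difference of -2.85 (limma adjusted p = 7.5e-05). With the mean of all its probe sets the difference was -0.68 and not called (adjusted p = 0.132). Cers3, a ceramide synthase of the epidermal barrier, differed by -0.05 and by 1.01, a difference of -1.07 (0.0066). Enpep, an aminopeptidase that cleaves angiotensin, was at 0.45 in the epididymis and -0.79 in the vas deferens, a difference of 1.23 (0.0107). The GABA-A receptor subunit Gabrb1 was at 0.52 and -0.87, a difference of 1.40 (0.00074), which quantile normalization reduced to 0.86 (adjusted p = 0.0794). Marchf11, a membrane-bound ubiquitin ligase, was at 0.32 and -1.22, a difference of 1.54 (0.00021). The P1 and E18.5 vas deferens arrays stand apart in control probe sets, with Gapdh 5′ to 3′ differences of -2.94 to -2.68 against -0.01 to 0.16 in the compared epididymis arrays, and the part of this in these 5 differences was not tested.

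Against the efferent duct the 1 gene was H2-Aa, an MHC class II chain that presents antigen. It differed by -0.06 in the epididymis and by 1.25 in the efferent duct, a difference of -1.31 (limma adjusted p = 0.0183), and with the mean of its probe sets by -0.73 (0.597). Without the first E18.5 epididymis array the adjusted p was 0.208 for H2-Aa, 0.0771 for Cers3 and 0.0860 for Enpep. Without the second P1 array it was 0.226 for H2-Aa and 0.133 for Enpep, and without the second E18.5 array it was 0.0732 for Enpep. The calls for Trp63, Gabrb1 and Marchf11 were kept without any 1 of the 4 compared arrays.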

How the results depend on the processing

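None of the 35 followed genes, the 6 differences between segments or the hypoxia list median changed sign under any of the 16 alternatives it was run under. Against 67 called genes, quantile normalization gave 1049 (670 higher, 379 lower, 65 of the 67 among them), array weights 372, and a fit of the 8 epididymis arrays alone 18. A fit without 8 arrays, those of the vas deferens at E18.5 and P1 and of the efferent duct at E14.5 and E16.5, gave 113. Not all of these stood apart in control probe sets: the first efferent duct array of E14.5 had 0.19 for Gapdh 5′ minus 3′ and -0.40 for the hybridisation controls. The other planned settings gave 53 to 95. For the difference from the efferent duct (1 gene), quantile normalization gave 13, array weights 9, leaving out the E14.5 epididymis arrays 2, and the mean of probe sets 0 (601 at an unadjusted p under 0.05). For the difference from the vas deferens (5 genes), these gave 33, 19, 9 and, for the mean, a count within 1.5 times. For E16.5 to E18.5 (1485 genes, alternatives added after the data were seen), quantile normalization gave 4986, array weights 4965 and the fit without the 8 arrays 2245. The hypoxia list (12 lower) held 19 under quantile normalization and 6 with the epididymis arrays alone, and its median of -0.58 became -1.02 under quantile normalization. Leaving out 1 array gave 17 to 38 genes across birth, 0 to 2 and 3 to 7 for the differences from efferent duct and vas deferens, 413 to 1360 before birth, and 5 to 8 hypoxia genes. The cause was not tested, beyond the fewer arrays in the smaller fits. With the replicate block 65 genes were called, 62 of them among the 67, and the hypoxia count stayed at 12. The crossed pairing, added after the data were seen, gave 70. The fits of the 4 compared or 8 epididymis arrays cannot give differences between segments. Other probe sets of the 35 called genes that have them had the same sign in 28, and in 9 their median was under 0.25 of the reported change.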

Other observations

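Some called genes belong to no list and were picked after their values were seen. Ccn3, a secreted matricellular protein, rose by 1.92 ± 0.31 (limma adjusted p = 0.0056), with values of 0.22 and 0.03 at E18.5 and 1.48 and 2.62 at P1 and its other probe set at 1.80. Folh1, a folate hydrolase also known as prostate-specific membrane antigen, rose by 0.90. Pate6, of a family of small secreted proteins of the male tract, rose by 0.69 in the epididymis and by 1.57 in the vas deferens. Bche, butyrylcholinesterase, rose by 0.67, but its other 2 probe sets lay at 0.08 and 0.09. Fah, the last enzyme of tyrosine breakdown, fell by 0.51, with values of -0.41 and -0.27 at E18.5 and -0.89 and -0.81 at P1. Scaf11, a splicing factor, fell by 0.76 on the probe set that stood for it, while its other 3 probe sets lay between 0.07 and 0.09.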
